A study of Mus musculus with 36 samples.

Results

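Open chromatin was examined over a stretch of proximal mouse chromosome 12 that holds the noncoding loci Gm19786, Gm49700 and 1700030C10Rik. The members are the consensus peaks of the count table that lie on chromosome 12 and start between 18 and 25 Mb of the GRCm39 build, 81 of the 71509 peaks used. The stretch was chosen by measured values, since the accessibility of these loci had stood out between knockout and wild-type cells in earlier readings of the same data. It was selected on the log2 fold changes of the HP1α knockout against wild type in naive cells and in Tconv, and the HP1γ knockout against wild type in Tconv with and without Treg, so their values are given here as a description and without a test. Gm49700 and 1700030C10Rik are annotated as long noncoding RNAs and Gm19786 as an unprocessed pseudogene. Of the 236 genes annotated in the stretch, 15 are protein coding and 67 are long noncoding RNAs, most of the others being pseudogenes, and many of the 81 peaks lie at coding genes such as Asap2, Adam17, Ywhaq, Grhl1, Klf11 and Mboat2. The word noncoding therefore covers the 3 named loci and not the members as a whole.

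The accessibility of chromatin was measured by ATAC-seq in mouse CD4 T cells of 2 mouse lines. HP1α knockout (KO) cells came from mice whose Hp1a gene was deleted in the germline by a CMV-cre transgene, with wild-type (WT) littermates as controls, and HP1γ KO cells from mice with floxed Hp1g alleles and a Cd4-cre transgene, which acts in T cells, with floxed littermates lacking cre as WT. Each genotype was profiled as naive splenic cells, as conventional T cells (Tconv) recovered from irradiated B6 mice that had received B6 and B6D2F1 bone marrow together with those cells, and as Tconv that had been transferred along with expanded WT regulatory T cells (Treg). There were 3 libraries for each of the 12 groups, 36 in all. The study's methods describe both lines as kept on a mixed 129/Sv and C57BL/6 background. Which of these strains contributed chromosome 12 in each library was not tested.

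HP1 proteins bind methylated histone H3 and help to keep repeated and silenced stretches of chromatin compact. HP1α, encoded by Cbx5, sits mainly in pericentromeric heterochromatin, whereas HP1γ, encoded by Cbx3, is found in heterochromatin and also along transcribed genes. Clusters of recently duplicated sequence close to a centromere are a common setting for such silencing. Long noncoding RNAs are transcripts without a clear coding frame, and unprocessed pseudogenes are copies of genes that keep the intron structure of the parent but no longer code.

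The libraries held between 1486053 and 96806542 reads in peaks, and the 81 members took from 0.0919% to 0.129% of them. The study left out 3 HP1α libraries for low quality, which its methods give by sample number and not by group. They are taken here to be WT replicate 3 and KO replicates 2 and 3 of the cells with Treg. The values in that condition therefore rest on 1 KO and 2 WT libraries unless all 3 against 3 are named, and the WT replicate 2 that was kept is also the shallowest library. The peaks at the starts of Cd3e, Cd3d, Cd3g, Cd4, Cd28 and Lck summed to between 445 and 1694 CPM (reads scaled to the same total of reads in peaks for each library) in every library, and no peak lay at the starts of the natural killer cell genes Ncr1 and Klrb1c. Of other cell types listed, 1 of 3 myeloid genes had a start peak, with 6.54 to 14.8 CPM, 1 of 2 CD8 T cell genes one with 2.66 to 35.9 CPM, 1 of 2 erythroid genes one with 0.376 to 4.57 CPM, and the 1 Treg gene one with 33.01 to 177 CPM. The ranges of KO and WT libraries overlapped within each line for these 4 lists, and their part in the results was not tested. The 2 start peaks of Cbx5 had log2 fold changes between -0.11 and 0.13 in HP1α KO cells and the start peak of Cbx3 between 0.02 and 0.11 in HP1γ KO cells. A start peak outside the deleted part does not check the knockout. The summed T cell start peaks were higher in every HP1γ KO library (1349 to 1694 CPM) than in any HP1γ WT library (776 to 1146 CPM), and the part of this in the HP1γ results below was not tested.

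For each of the 3 loci the peak with the smallest p over the comparisons of KO and WT is called its lead peak. The lead peak of 1700030C10Rik, chr12:20864981-20866290, covers the start of that long noncoding RNA. The lead peak of Gm49700, chr12:20664591-20665540, covers its start and that of Gm16476. The lead peak assigned to Gm19786, chr12:18599261-18600500, lies 9116 bp from the start of this pseudogene, inside an intron of the coding gene 5730507C01Rik, and does not overlap Gm19786 itself. A window of 300 bases of each, around the gene start or, for Gm19786, at the centre of the peak, is shown to compare base composition, 5′ to 3′ on the strand named and with CpG dinucleotides in capitals.
Gm49700, chr12:20664865-20665164, plus strand, centred on its start: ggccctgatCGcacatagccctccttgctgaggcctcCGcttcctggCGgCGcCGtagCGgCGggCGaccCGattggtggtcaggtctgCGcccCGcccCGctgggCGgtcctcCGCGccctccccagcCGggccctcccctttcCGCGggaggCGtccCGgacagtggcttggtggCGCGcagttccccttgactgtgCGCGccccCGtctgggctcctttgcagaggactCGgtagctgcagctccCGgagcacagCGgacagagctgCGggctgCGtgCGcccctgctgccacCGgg
1700030C10Rik, chr12:20865690-20865989, minus strand, centred on its start: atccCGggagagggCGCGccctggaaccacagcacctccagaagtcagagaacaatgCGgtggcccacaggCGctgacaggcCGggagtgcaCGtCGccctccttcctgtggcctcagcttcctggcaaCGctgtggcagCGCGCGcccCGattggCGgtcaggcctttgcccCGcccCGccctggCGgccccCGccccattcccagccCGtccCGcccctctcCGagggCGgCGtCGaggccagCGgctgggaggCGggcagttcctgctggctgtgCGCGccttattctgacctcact
Gm19786, chr12:18599731-18600030, plus strand, at the peak centre: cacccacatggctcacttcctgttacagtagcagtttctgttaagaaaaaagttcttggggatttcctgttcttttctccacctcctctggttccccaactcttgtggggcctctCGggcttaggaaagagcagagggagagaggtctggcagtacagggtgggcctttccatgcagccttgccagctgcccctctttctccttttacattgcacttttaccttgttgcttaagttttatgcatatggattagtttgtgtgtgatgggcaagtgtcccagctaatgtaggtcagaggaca
The windows of Gm49700 and 1700030C10Rik are rich in GC (73.7% and 71.3%) and hold 32 and 28 CpG dinucleotides, and the window assigned to Gm19786 holds 1 at 48.7% GC. None of the 3 windows held, on either strand, the ETS word ccggaagt, the RUNX word tgtggttt, the AP-1 word tgantca, the CRE word tgacgtca, the TATA box word tataaa, the E-box word cacgtg or the NRF1 motif. Among all peaks, the central 300 bases held these motifs in 0.2% to 13.0%, and among RefSeq promoters of the same length in 1.0% to 13.6%. No overlap between the motifs was removed, and an absent word says only that these letters are not in the window.

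Many members are copies of one another. In a search of the genome for matches of at least 90% identity over at least 50% of a peak, 31 of the 81 members had another copy (copied members) and 50 had none (single-copy members). The copied members had a median of 27 other copies, 24 of them had 10 or more and 5 had 1. All the other copies lay between 17 and 26 Mb of chromosome 12, except those of Gm16372 and part of those of the 5730507C01Rik peak at chr12:18577431-18577750. The lead peak of Gm49700 had 33 other copies, that of Gm19786 42 and that of 1700030C10Rik 1. Up to the downstream start peak of Asap2, chr12:21160721-21162950, which holds a first coding exon annotated for that gene, every member was a copied one, 20 in all. Since the authors kept only reads of high mapping quality, a read that could come from several copies may have been lost or, where sequences differ by few bases, placed at a sister copy, so the values of copied members are uncertain as to which copy they belong to.

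The largest family of related members, 14 peaks linked by matches of 80% identity or more over at least 100 bp, includes the starts of Gm49700, 1700030C10Rik, 5730507C01Rik, Gm48398, Gm49957, 3110053B16Rik, 2410018L13Rik and 9030624G23Rik and both start peaks of Asap2. Asap2 encodes a GTPase-activating protein of the small GTPase Arf. The Gm49700 lead peak was 97.7% identical over 951 bp to the upstream Asap2 start peak, chr12:21039711-21041210, and 83.1% identical over 960 bp, in the opposite orientation, to the lead peak of 1700030C10Rik. In 12 of the 14 peaks, that of Asap2 included, the first coding exon of Asap2, 126 bp long, could be aligned at 92.9% identity or more, with the start codon kept in 12 and the frame free of stops in 11. The exon and its copies in 5 members are shown so that the shared sequence of these starts can be compared, read on the strand of the copy, with bases that differ from Asap2 in capitals.
Asap2, chr12:21162045-21162170, plus strand: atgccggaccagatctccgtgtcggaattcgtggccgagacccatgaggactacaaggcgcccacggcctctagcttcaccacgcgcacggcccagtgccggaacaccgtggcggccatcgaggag
1700030C10Rik, chr12:20865347-20865472, minus strand: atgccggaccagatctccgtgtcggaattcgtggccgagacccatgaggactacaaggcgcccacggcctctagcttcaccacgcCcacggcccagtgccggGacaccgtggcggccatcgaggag
Gm49700, chr12:20665305-20665430, plus strand: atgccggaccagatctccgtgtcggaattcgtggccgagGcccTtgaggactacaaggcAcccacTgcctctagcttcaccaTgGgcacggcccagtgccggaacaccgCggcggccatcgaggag
5730507C01Rik, chr12:18564739-18564864, plus strand: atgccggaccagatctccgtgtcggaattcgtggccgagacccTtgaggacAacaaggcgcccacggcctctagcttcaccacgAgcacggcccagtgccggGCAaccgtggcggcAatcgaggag
9030624G23Rik, chr12:24146844-24146969, minus strand: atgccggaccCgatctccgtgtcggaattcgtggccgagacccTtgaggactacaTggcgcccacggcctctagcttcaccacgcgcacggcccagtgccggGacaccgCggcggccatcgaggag
ENSMUSG00000141379, chr12:24302057-24302182, minus strand: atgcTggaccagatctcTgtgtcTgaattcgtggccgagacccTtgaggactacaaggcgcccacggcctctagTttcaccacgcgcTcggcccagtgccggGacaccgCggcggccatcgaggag
The 1700030C10Rik copy differed from Asap2 at 2 bases and is itself annotated, base for base, as a transcribed unprocessed pseudogene of 126 bp under the same gene name. The other 4 copies shown differed at 7, 7, 5 and 8 bases. The upstream Asap2 start peak carries a copy with 7 differing and 2 missing bases and an early stop codon, the only one of the 12 without an open frame. A further family of 5 peaks joined both peaks inside Gm19786, Gm9249, Gm49686 and the peak of Gm49699 and Gm49700 at chr12:20717571-20718430.

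Levels below are CPM, scaled by the TMM method, and log2 fold changes come from the fit over all peaks, where a peak was called if its adjusted p was below 0.05 and its log2 fold change above 1 or below -1. In such bulk libraries, fewer cells with an open site and less opening per cell cannot be told apart. At the lead peak of 1700030C10Rik, HP1α KO naive cells had 29.0, 38.4 and 36.5 CPM and their WT 6.25, 5.62 and 6.00. In Tconv the HP1α KO libraries had 41.9, 32.2 and 20.9 CPM and the WT libraries 1.27, 3.47 and 7.54. Every KO library lay far above every WT library in both conditions, and the log2 fold changes were 2.55 ± 0.24 (SE) and 3.803 ± 0.35. With Treg, a comparison that had no part in the choice of the locus, the KO library that was kept had 34.5 CPM and the WT libraries 3.68 and 6.42. This was a log2 fold change of 3.09 ± 0.61 (edgeR, adjusted p = 0.0138, 1 KO against 2 WT), where the lone KO library is taken to vary like the other groups, which supply the spread. The call was lost when only the groups compared were fitted, with log2 depth as a covariate and without WT replicate 1. The libraries left out by the study had 20.7 and 11.8 CPM in KO and 10.8 in WT, and with all 3 against 3 every KO library lay above every WT library at a log2 fold change of 2.26 ± 0.56, which did not pass (edgeR adjusted p = 0.0648).

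In HP1γ KO cells the differences at the same peak were smaller in size. HP1γ KO naive cells had 4.72, 6.69 and 2.78 CPM and WT 4.08, 2.97 and 3.13, which overlap, and the difference did not pass the test (log2 fold change 0.35 ± 0.28, edgeR adjusted p = 0.766). In Tconv the KO libraries had 6.95, 5.77 and 6.43 CPM and the WT libraries 1.60, 1.28 and 1.52, a log2 fold change of 2.14 ± 0.31. With Treg they had 7.17, 6.53 and 10.1 against 3.82, 2.32 and 4.95 CPM, a log2 fold change of 1.15 ± 0.28. KO libraries lay above WT libraries in both conditions of transferred cells. The effect of HP1α loss exceeded that of HP1γ loss by 2.22 ± 0.40 on the log2 scale in naive cells, by 1.74 ± 0.58 in Tconv and by 2.04 ± 0.75 with Treg. These differences draw on the comparisons that chose the locus and carry no test.

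At Gm49700 the kept KO libraries lay above the kept WT libraries in each of the 6 comparisons. Of these, 4 had a part in the choice of the stretch, and neither of the other 2 passed the edgeR test. HP1α KO naive cells had 7.25, 8.43 and 7.34 CPM at its lead peak against 3.79, 2.19 and 2.55 in WT, and HP1α KO Tconv had 10.3, 8.82 and 5.87 against 2.01, 2.04 and 2.56. The groups did not overlap, with log2 fold changes of 1.51 ± 0.19 and 2.08 ± 0.25. With Treg the kept KO library had 8.38 CPM and the WT libraries 1.80 and 3.21, a log2 fold change of 2.08 ± 0.55 that did not pass (edgeR adjusted p = 0.0597, and 0.108 with all libraries, at 1.89 ± 0.53, where KO and WT libraries overlapped). In HP1γ naive cells, also outside the choice of the stretch but not of the lead peak, KO libraries had 4.69, 4.55 and 5.51 CPM. WT libraries had 2.13, 1.89 and 1.94, so that the lowest KO library was above the highest WT library. The log2 fold change there was 1.38 ± 0.28, just over the threshold on the adjusted p (edgeR, adjusted p = 0.0521). In HP1γ Tconv, KO libraries had 13.6, 8.55 and 12.3 CPM against 3.43, 1.30 and 1.86, and with Treg 20.6, 16.8 and 15.9 against 3.05, 2.32 and 3.28. The log2 fold changes were 2.39 ± 0.24 and 2.67 ± 0.24. At this peak the difference between the effects of the knockouts was 0.16 ± 0.35 for naive cells, -0.28 ± 0.41 for Tconv and -0.50 ± 0.85 with Treg (HP1α minus HP1γ, log2 scale), intervals that leave room for differences of either sign.

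The peak assigned to Gm19786 was higher in transferred HP1γ KO cells, and in the HP1α line KO and WT libraries overlapped. HP1γ KO Tconv had 7.79, 6.53 and 8.51 CPM and WT Tconv 0.204, 0.237 and 0.340, a log2 fold change of 4.93 ± 0.26 or 30.4-fold. With Treg, KO libraries had 9.63, 7.57 and 7.58 CPM and WT libraries 0.445, 0.498 and 0.904, a log2 fold change of 3.92 ± 0.25. Every KO library lay far above every WT library. In naive HP1γ cells the peak held 12, 7 and 13 reads in KO and 3, 0 and 2 reads in WT, or 0.380, 0.234 and 0.177 against 0.0464, 0 and 0.0244 CPM. These groups did not overlap either, and the log2 fold change of 3.28 ± 0.99 did not pass the test (edgeR adjusted p = 0.246). HP1α KO and WT libraries overlapped in all 3 conditions, with log2 fold changes of 0.20 ± 1.15, 0.19 ± 0.64 and 0.05 ± 1.53 (edgeR adjusted p = 0.993 for the last). In Tconv the difference between the effects of HP1α and HP1γ loss was -4.70 ± 0.82 on the log2 scale. The difference carries no test, for the reason given above.

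**Figure D1:**
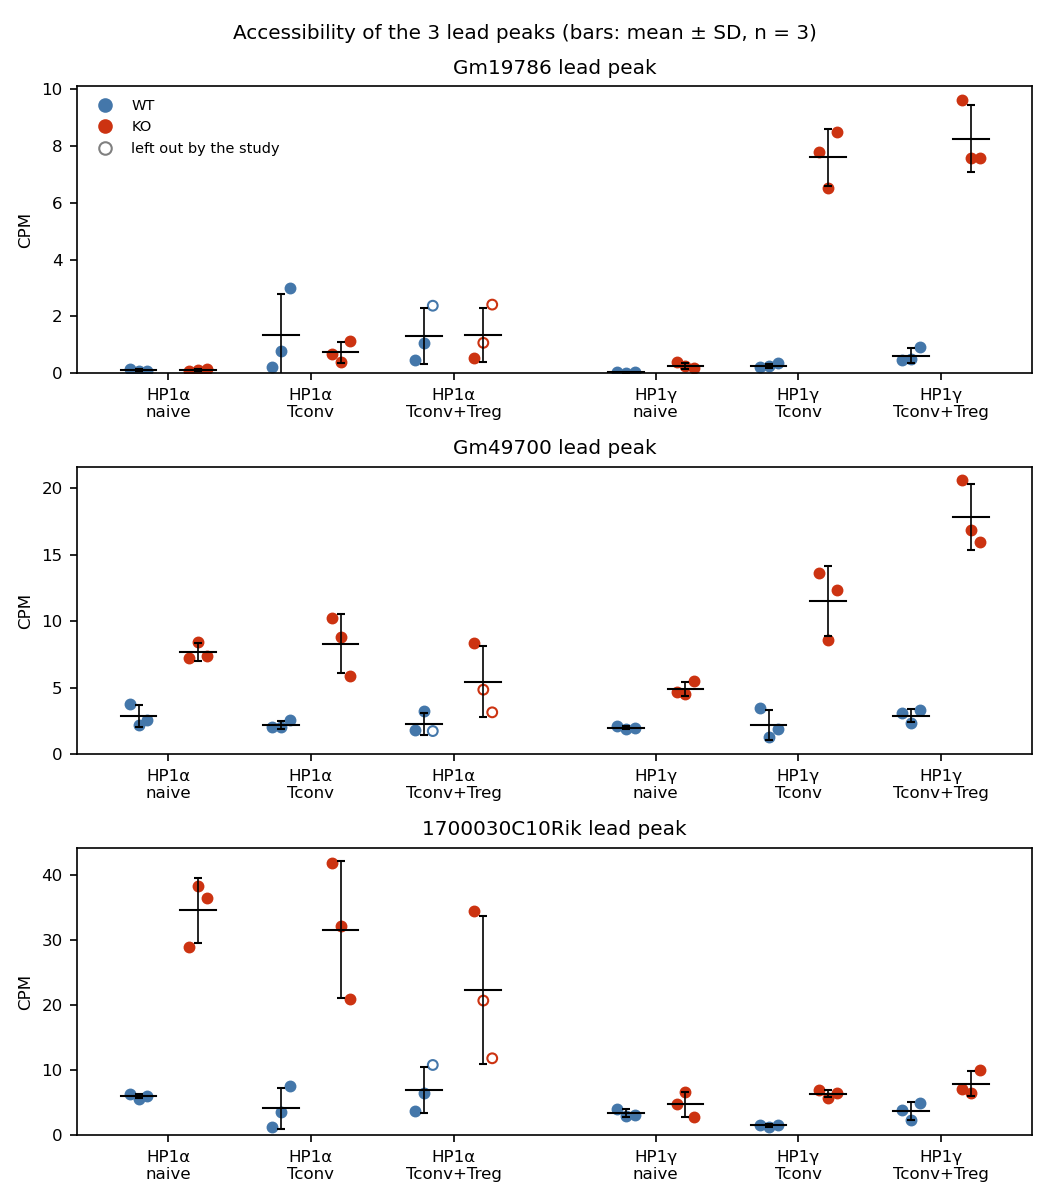
CPM at the 3 lead peaks (vertical axes, from 0) in each library of the 12 groups, with bars for the mean and SD of 3 libraries and open circles for the 3 libraries that the study left out. KO libraries of HP1α reach 41.9 CPM at 1700030C10Rik and those of HP1γ 20.6 CPM at Gm49700, while the Gm19786 peak lies between 6.53 and 9.63 CPM in transferred HP1γ KO cells.

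The remaining peaks of these loci also had log2 fold changes above 0 in transferred HP1γ KO cells. Inside Gm19786, the peak at chr12:18612891-18613580 had a log2 fold change of 4.61 ± 0.46 in Tconv and 4.21 ± 0.52 with Treg, and that at chr12:18612241-18612710 one of 3.22 ± 0.62 and 2.02 ± 0.53. In the intron shared by Gm49700 and the pseudogene Gm49699, the peak at chr12:20717571-20718430 had 1.59 ± 0.61 in Tconv, which was not called, and 2.38 ± 0.43 with Treg. The peak next to it at chr12:20719191-20719640 had 1.69 ± 0.99, not called, and 2.18 ± 0.62. In HP1α KO cells none of these 4 peaks was called in any condition.

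The members were then counted over the whole stretch in HP1γ KO cells. In Tconv, 14 of the 81 members were called higher in KO and 3 lower, against a background of 3.35% of all peaks called, and with Treg 26 were called higher and 6 lower, against 11.9%. Both comparisons had a part in the choice of the stretch, so nothing is read from these counts. The 14 called higher in Tconv were all among the 26 with Treg (100% of the first list and 53.8% of the second). Both lists come from the same fit with a shared estimate of spread. The like share over all peaks was not taken, so nothing is read from the overlap. The count in Tconv fell from 17 to 11 without KO replicate 3, and that with Treg from 32 to 18 without KO replicate 1 and to 21 without WT replicate 2.

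The split by copies used only the genome sequence, but the 3 loci behind the choice of the stretch are all copied members. Copies may also share reads, so the copied members are not independent of one another and their counts are a description. Over all peaks the median log2 fold change was 0.02 in HP1γ Tconv, -0.02 with Treg and 0.03 in naive cells. In HP1γ Tconv all 31 copied members had a log2 fold change above 0, with a median of 2.14, and 14 were called higher, whereas the 50 single-copy members had a median of 0.10 with 0 called higher and 3 lower. With Treg the copied members had a median of 2.02, 23 called higher and 0 lower, and the single-copy members 0.09, 3 called higher and 6 lower. In naive cells, which had no part in the choice, the medians were 1.38 and 0.05, and 27 of 31 copied and 28 of 50 single-copy members had a log2 fold change above 0. No member was called by edgeR in naive HP1γ cells, against 0.14% of all peaks, while 12 members had an unadjusted p under 0.05, 9 of them copied, as had 6421 of all 71508 peaks, and DESeq2 called 12 members and 2339 peaks in all. Among them, 2 passed the adjusted p at a log2 fold change under 1, the start of Gm48398 (0.86 ± 0.16, adjusted p = 0.0235) and the upstream start peak of Asap2 (0.92 ± 0.18, adjusted p = 0.0398). Copied members also held fewer reads, with a median of 1785 over all libraries against 8815 for single-copy members, which makes their single values less precise.

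Summed over the 31 copied members, accessibility in HP1γ KO was 148.8 ± 2.81 CPM for naive cells, 221 ± 37.8 for Tconv and 287 ± 54.9 with Treg (mean ± SD, n = 3). WT had 114 ± 2.21, 124 ± 13.9 and 130 ± 12.8 CPM. In each condition the lowest KO library, at 146, 178 and 249 CPM, lay above the highest WT library, at 116, 139 and 144 CPM. The sum over the 50 single-copy members was 894 ± 33.7 CPM in KO and 916 ± 7.54 in WT naive cells, 951 ± 102 and 960 ± 19.5 in Tconv and 1005 ± 53.3 and 874 ± 126 with Treg, and only in the last condition was the KO mean the higher one, with libraries that overlap in all 3 conditions.

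**Figure D2:**
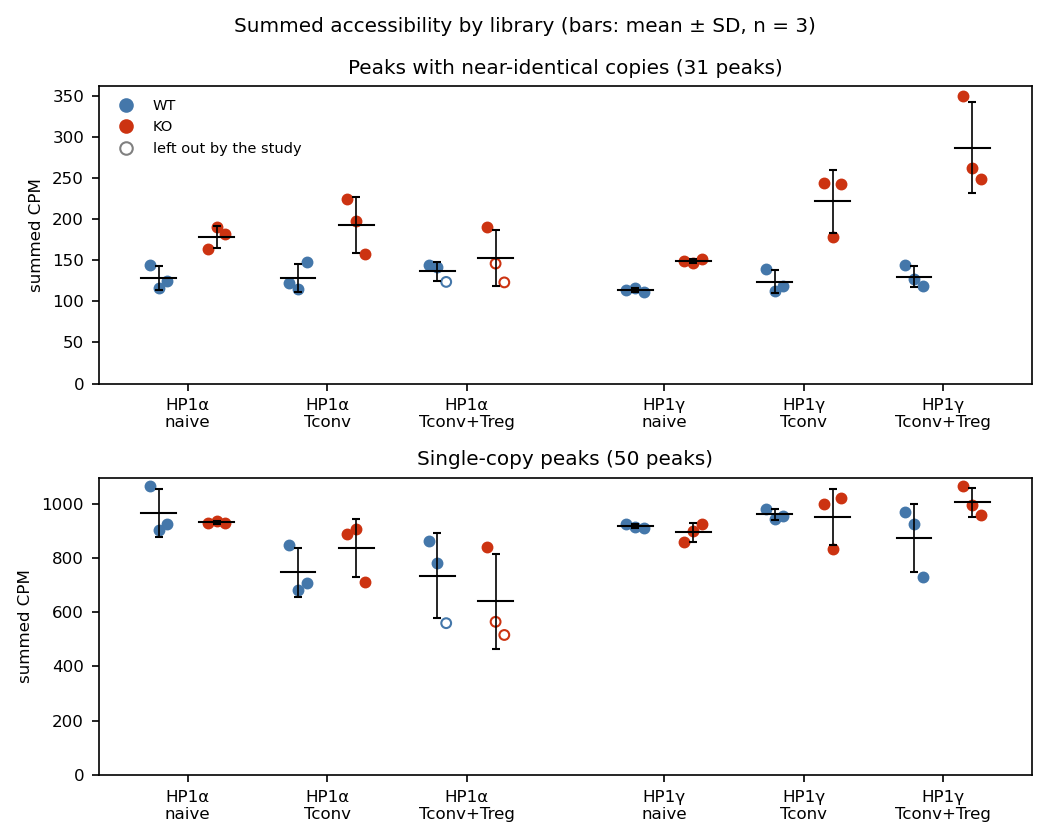
Summed CPM (vertical axes, from 0) of the 31 copied members and of the 50 single-copy members in each library, by line, condition and genotype, with bars for the mean and SD of 3 libraries and open circles for libraries left out by the study. The copied members sum to 146 CPM or more in every HP1γ KO library and to 144 CPM or less in every HP1γ WT library, while single-copy sums overlap in these groups.

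The members were counted in the same way in HP1α KO cells. In naive cells 2 members were called higher, against 0.00559% of all peaks, and in Tconv 2, against 0.021%, in both cases the lead peaks of 1700030C10Rik and Gm49700 and with 0 called lower. Both comparisons had a part in the choice, so nothing is read from these counts either. The naive count was 1 without WT replicate 2 or WT replicate 3, and the Tconv count 1 without WT replicate 1 and 4 without KO replicate 1. When only the groups compared were fitted, 1 call was left in naive cells and 0 in Tconv. The copied members had median log2 fold changes of 0.27 in naive cells and 0.24 in Tconv, and the single-copy members -0.01 and 0.07. Their summed level was 179 ± 13.3 CPM in KO and 128 ± 14.4 in WT naive cells and 193 ± 34.0 against 128 ± 17.3 in Tconv, without overlap. Without the 1700030C10Rik peak the sums were 144 ± 8.50 against 122 ± 14.1 and 161 ± 23.5 against 124 ± 14.7, and KO and WT libraries overlapped in both conditions. The start of Gm49957 had 5.96, 6.04 and 5.895 CPM in HP1α KO naive cells and 1.87, 1.31 and 1.05 in WT. Its log2 fold change there was 2.15 ± 0.40 and was not called. In Tconv it had 17.9, 8.68 and 9.39 CPM against 1.01, 4.21 and 5.97, also without overlap or call. The starts of 9030624G23Rik and ENSMUSG00000141379 had 1.77 and 1.23 in naive cells and 2.52 and 1.17 in Tconv, not called. Within the family of Asap2 starts the median log2 fold change was 0.98 in naive cells and 0.75 in Tconv, with 12 and 14 of the 14 peaks above 0. With Treg it was 0.01, with 7 of the 14 above 0.

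With Treg, HP1α KO cells had 2 members called higher and 0 lower, against 1.63% of all peaks, the lead peak of 1700030C10Rik and a single-copy intergenic peak at chr12:21509541-21510190, 20329 bp from the noncoding gene Gm60592 (log2 fold change 2.45 ± 0.60, edgeR adjusted p = 0.0435). Both calls rest on 1 KO library. Without WT replicate 1 there were 0 calls and without WT replicate 2 there was 1, and with all 18 HP1α libraries edgeR called 0 of the 80 members that passed the filter, against 0.741% of all peaks, with 7 at an unadjusted p under 0.05.

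**Figure D3:**
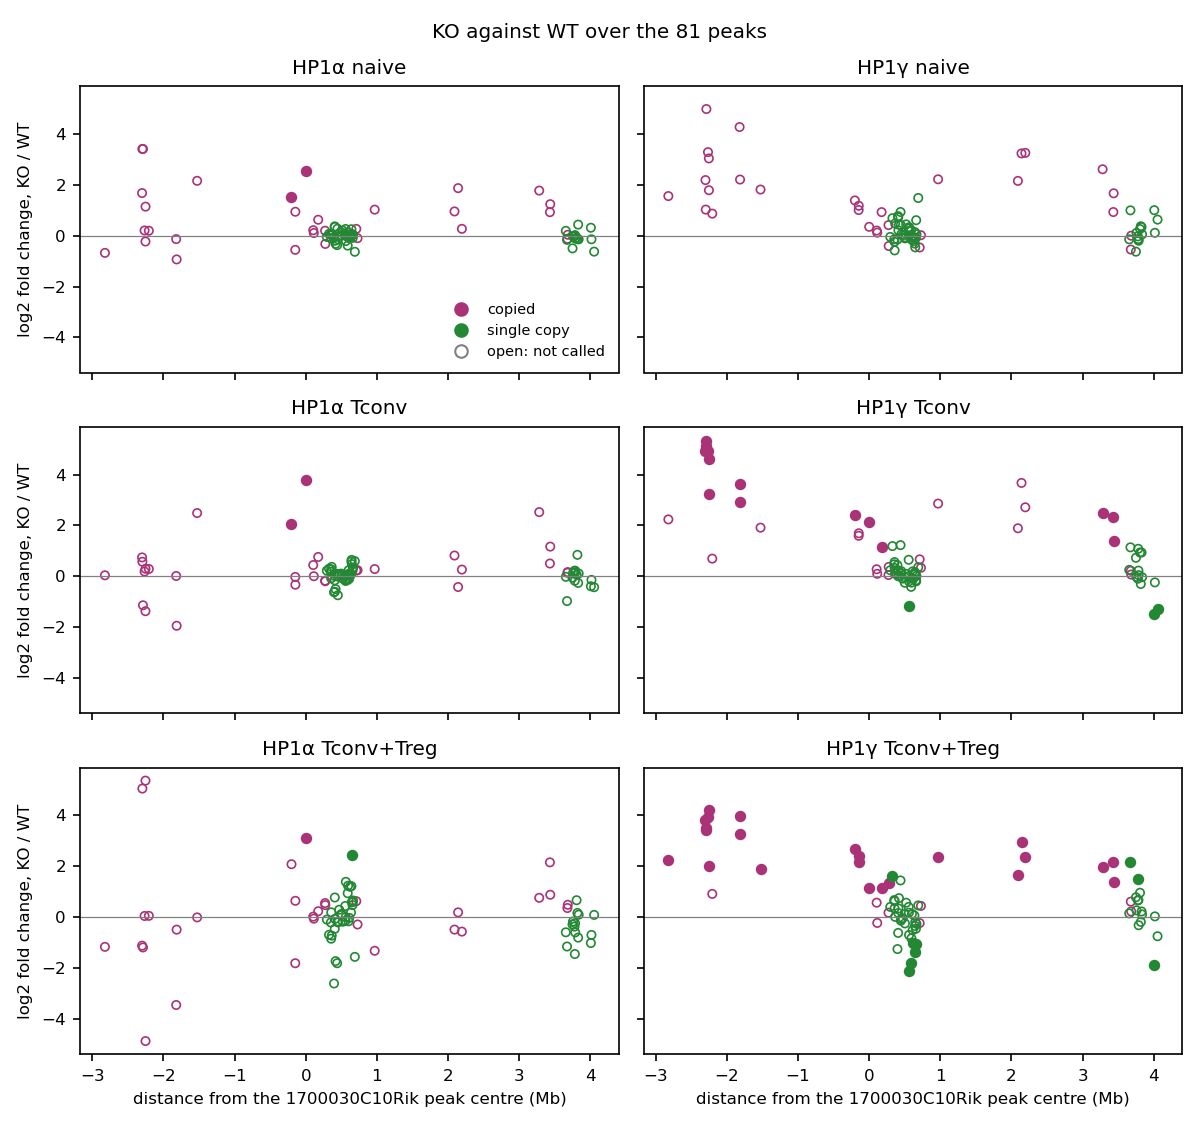
Log2 fold change of KO against WT (vertical axes) for the 81 members by the distance of the peak centre from that of the 1700030C10Rik lead peak in Mb, for each line and condition, with copied members in purple, single-copy members in green and called peaks filled. Copied members lie mostly above 0 across the whole stretch in HP1γ KO Tconv with and without Treg, with medians of 2.14 and 2.02, and single-copy members gather around 0.

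The 5 largest log2 fold changes of HP1γ KO Tconv lay in and around 5730507C01Rik, the coding gene whose introns hold the Gm19786 peaks. Its start peak, chr12:18563981-18565470, had 14.1, 20.3 and 21.7 CPM in KO Tconv and 0.236, 0.620 and 1.10 in WT Tconv. With Treg it had 39.4, 26.2 and 20.3 against 1.88, 1.52 and 3.62 CPM. KO and WT libraries were far apart in both, at log2 fold changes of 4.93 ± 0.42 and 3.81 ± 0.35. The intronic peaks at chr12:18568811-18569020 and chr12:18577431-18577750 had 5.11 ± 0.61 and 5.33 ± 0.76 in Tconv and 3.44 ± 0.54 and 3.51 ± 0.64 with Treg. In HP1α KO Tconv the start peak had 3.28, 1.63 and 3.60 CPM against 0.619, 2.60 and 6.97 in WT, which overlap. In HP1α naive cells it had 0.524, 0.927 and 0.922 CPM in KO and 0.348, 0.135 and 0.328 in WT, which do not overlap, at a log2 fold change of 1.67 ± 0.74 that was not called. At and near Gm9249, an unprocessed pseudogene, the peaks at chr12:19043651-19044900 and chr12:19050571-19050860 had log2 fold changes of 3.64 ± 0.71 and 2.90 ± 0.79 in HP1γ Tconv and 3.98 ± 0.51 and 3.27 ± 0.75 with Treg.

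At the distal end, the start of 9030624G23Rik, chr12:24146831-24147560, had 2.49 ± 0.44 in HP1γ Tconv and 1.97 ± 0.33 with Treg, and the intron and start of ENSMUSG00000141379 had 2.33 ± 0.70 and 1.4 ± 0.27 in Tconv and 2.17 ± 0.66 and 1.39 ± 0.27 with Treg. The upstream Asap2 start peak, nearly identical to the Gm49700 peak, had 21.6, 13.8 and 19.5 CPM in HP1γ KO Tconv and 9.02, 7.54 and 8.61 in WT Tconv (log2 fold change 1.17 ± 0.16). The annotated coding start of Asap2, which has no copy at 90% identity, had 52.4, 36.7 and 57.4 CPM in KO Tconv and 45.4, 38.4 and 43.0 in WT, and was not called in any of the 6 comparisons of KO and WT. KO and WT libraries overlapped at this start.

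**Figure D4:**
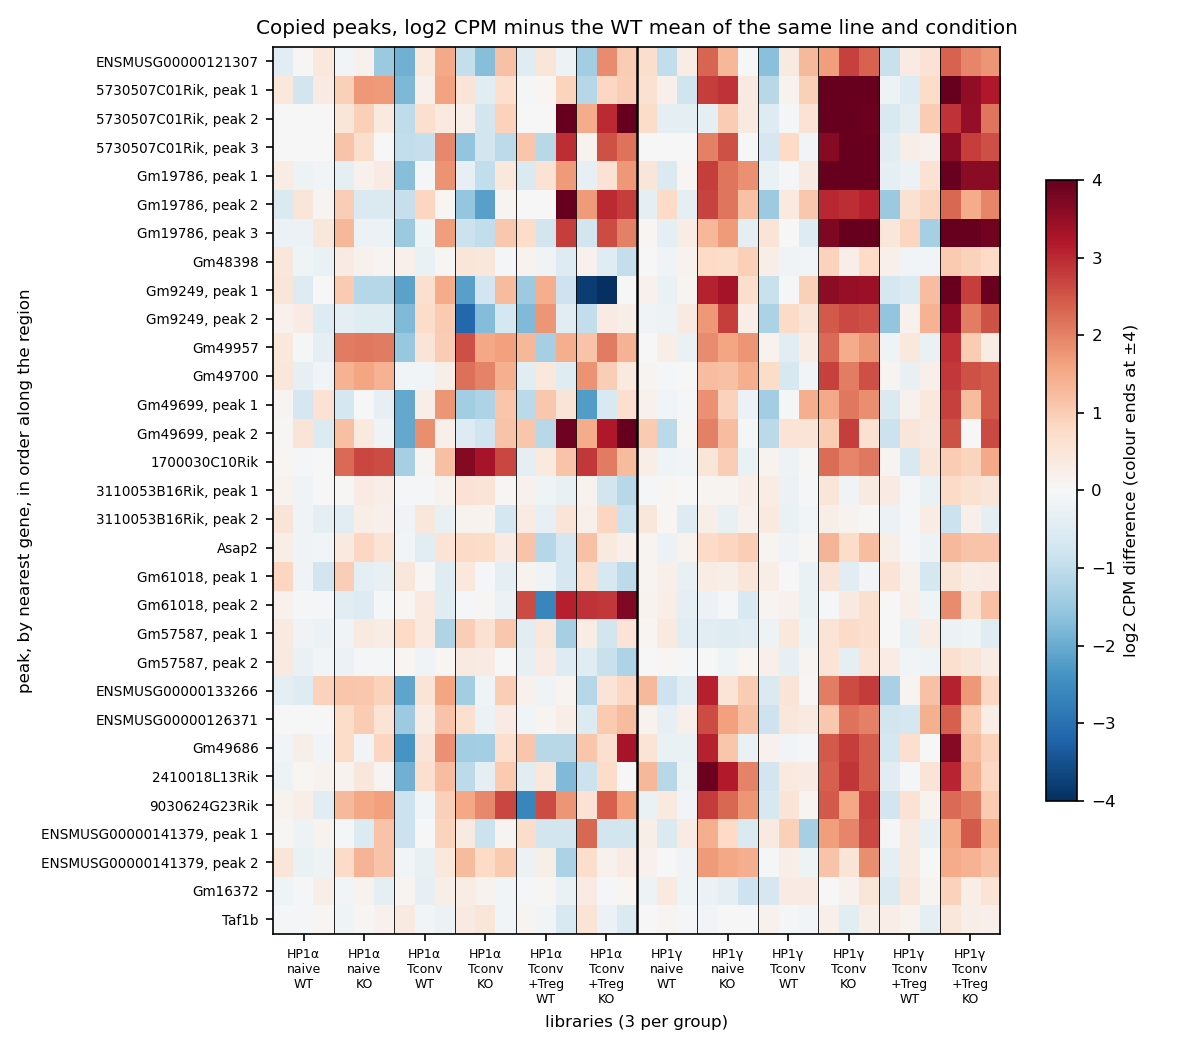
Log2 CPM of the 31 copied members (rows, by nearest gene in order along the stretch) in all 36 libraries (columns, 3 per group), minus the mean of the kept WT libraries of the same line and condition, with red above and blue below it. The rows of 5730507C01Rik, Gm19786 and Gm9249 are red in HP1γ KO Tconv with and without Treg. Those of 1700030C10Rik, Gm49700 and Gm49957 are also red in HP1α KO naive cells and Tconv.

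All peaks called lower in HP1γ KO cells were single-copy members. The intergenic peak at chr12:21428741-21429030, 5067 bp from the noncoding gene Gm49586, had 1.19, 1.13 and 0.461 CPM in KO Tconv against 2.14, 2.06 and 1.60 in WT, a log2 fold change of -1.17 ± 0.31, and one of -2.12 ± 0.40 with Treg. Near Mboat2, which encodes a lysophospholipid acyltransferase, the peak at chr12:24872921-24873550 had -1.49 ± 0.38 and -1.89 ± 0.53, and an intronic peak of this gene at chr12:24918701-24919490 had -1.29 ± 0.33 in Tconv. With Treg, peaks in an intron of Ywhaq, which encodes a 14-3-3 adaptor protein, at chr12:21454971-21455250 and next to Gm60592 at chr12:21487031-21488590 had -1.80 ± 0.45 and -1.0 ± 0.25. The 3 single-copy members called higher with Treg were an intronic peak of Asap2 at chr12:21192071-21193320 (1.62 ± 0.32), an intronic peak of Grhl1, a grainyhead-like transcription factor gene, at chr12:24647071-24648680 (1.49 ± 0.27), and an intergenic peak near Gm16372, which is named because it completes this count (2.17 ± 0.63). At the peak near Gm16372 the KO libraries had 7.34, 1.09 and 1.22 CPM and the WT libraries 0.485, 0.896 and 1.24, so that KO replicate 1 alone lay above the WT libraries.

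The flanks of the stretch were read in the same fits. In HP1γ Tconv, 10 of 197 peaks between 11 and 18 Mb were called higher and 0 lower, and 6 of 166 peaks between 25 and 32 Mb were called higher and 3 lower. The 3076 peaks of chromosome 12 outside the stretch, both flanks included, held 65 calls upward and 59 downward. With Treg, 21 were called higher and 5 lower between 11 and 18 Mb, and 14 higher and 22 lower between 25 and 32 Mb. Over the same 3076 peaks, both flanks again included, 205 were called higher and 188 lower. The first member, at chr12:18042681-18042930, had a log2 fold change of 2.24 in HP1γ Tconv, and the nearest peak outside that edge, chr12:17931111-17932770, had 1.35. The last member had -1.29 and the nearest peak beyond it, chr12:25002181-25002640, had -0.30.

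Naive cells and Tconv were compared within each line and genotype. In HP1α WT cells 29 members were called higher and 6 lower (42.5% of all peaks called), and in HP1α KO cells 30 and 4 (42.6%). In HP1γ WT cells 25 were called higher and 6 lower (46.5%), and in HP1γ KO cells 37 and 2 (43.0%). Over all peaks 17824 were called higher and 12548 lower in HP1α WT, 16813 and 13617 in HP1α KO, 17513 and 15713 in HP1γ WT and 15997 and 14728 in HP1γ KO. The median log2 fold changes of the members lay between 1.10 and 1.404 and those of all peaks between -0.05 and 0.08. These contrasts share their Tconv libraries with the comparisons that chose the stretch, so the values of members in them are a description. Among copied members, 9 of 31 were called higher in HP1α WT, 9 in HP1α KO, 5 in HP1γ WT and 18 in HP1γ KO. Whether the rise differed between HP1γ KO and WT was not tested by itself. The peak assigned to Gm19786 had log2 fold changes of 2.58 ± 0.92, 2.57 ± 0.75, 3.42 ± 0.93 and 5.07 ± 0.28 in the order just used. Gm49700 had 1.27 ± 0.22 in HP1γ KO cells. The start of 1700030C10Rik had -1.30 ± 0.41 and -1.13 ± 0.34 in WT cells of HP1α and HP1γ and -0.05 ± 0.21 and 0.67 ± 0.27 in their KO cells. Its HP1α WT libraries overlapped, since Tconv replicate 3 lay above every naive library, whereas all HP1γ WT Tconv libraries lay below the naive ones.

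Several single-copy members were called in all 4 of these contrasts. Near the noncoding gene Gm59951, the intergenic peak at chr12:21526041-21526970 had log2 fold changes of 3.97 to 5.19 in the 4 contrasts, and that at chr12:21555061-21555740 of 2.81 to 4.91. An intronic peak of Asap2 at chr12:21275581-21278120 had 3.20 to 4.40 and the peak near Mboat2 at chr12:24872921-24873550 had 2.46 to 4.95. The start of Mboat2 was lower in all 4 (log2 fold changes from -1.46 to -1.12), as was a peak in an exon of Asap2 at chr12:21262881-21263470 (from -3.51 to -2.65). All 24 values passed the call.

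The contrasts of Tconv with and without Treg also share libraries with the comparisons that chose the stretch, and their values are again a description. In HP1γ WT cells 0 members were called with Treg against without by edgeR (0.137% of all peaks), with 10 members and 14522 of all 71508 peaks at an unadjusted p under 0.05, and DESeq2 called 2 members and 2329 peaks in all. Without WT Treg replicate 2 the edgeR count was 1. In HP1α WT cells 2 were called higher and 2 lower (4.94% of members and 6.77% of all peaks), namely the Asap2 intron peak at chr12:21192071-21193320 (1.94 ± 0.30) and the Gm59951 peak at chr12:21555061-21555740 (1.76 ± 0.38) among the higher ones, and both Gm60592 peaks at chr12:21509541-21510190 (-2.19 ± 0.59) and chr12:21487031-21488590 (-1.19 ± 0.36) among the lower ones. The count was 0 without WT Treg replicate 1 and 1 without WT Tconv replicate 1. In HP1α KO cells 1 was called lower (0.548% of all peaks), the peak near Mboat2 at chr12:24872921-24873550 (-2.34 ± 0.44).

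In HP1γ KO cells, Treg went with 12 members called higher and 4 lower (8.15% of all peaks). Of the higher ones 9 were copied. In order of adjusted p these were led by the Gm49699 peak inside Gm49700 (1.84 ± 0.36), and the Grhl1 intron peak (1.32 ± 0.25) came first among single-copy members. The 4 lower ones were single-copy members, led by adjusted p by those of Gm59951 at chr12:21526041-21526970 (-1.36 ± 0.26) and Gm60592 at chr12:21507181-21507580 (-1.64 ± 0.33). Of the lead peaks, Gm49700 had 0.59 ± 0.17, under the fold of a call, and those of Gm19786 and 1700030C10Rik had 0.09 ± 0.13 and 0.24 ± 0.23. The count was 8 without KO Tconv replicate 1 and 4 without KO Treg replicate 1. DESeq2 called 4 members higher and 4 lower, with 4678 peaks called in all.

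**Figure D5:**
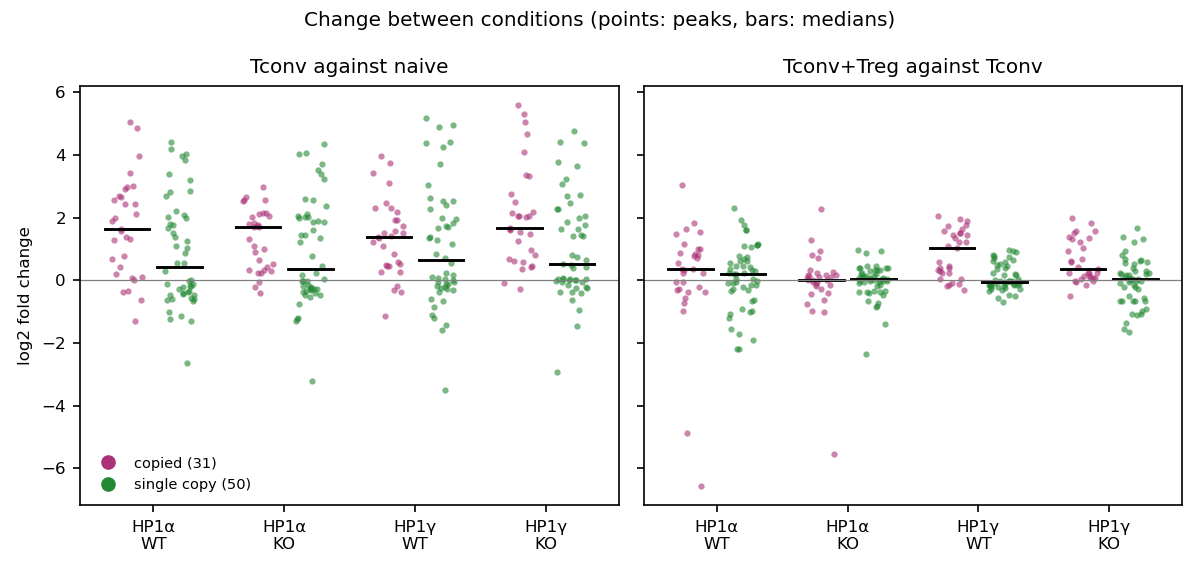
Log2 fold change of the 81 members (points) between conditions in each line and genotype, for copied (purple) and single-copy (green) members, with bars for the medians. In Tconv against naive cells the copied members have medians between 1.38 and 1.70 and the single-copy members between 0.35 and 0.64.

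The difference between the effects of HP1α loss and HP1γ loss was called for 1 member in naive cells, against 0.0308% of all peaks, for 3 in Tconv, against 1.04%, and for 9 with Treg, against 11.1%. These differences draw on the comparisons behind the choice of the stretch and are a description. In Tconv the 2 members whose effect was larger in HP1γ were the 5730507C01Rik start (-4.13 ± 0.87, HP1α minus HP1γ, log2 scale) and the Gm19786 lead peak. The naive count was 0 after leaving out WT replicate 2 or 3 or KO replicate 2 or 3 of HP1α, or any WT replicate or KO replicate 3 of HP1γ. The Tconv count was 5 without HP1α KO replicate 3, and the count with Treg was 0 and 5 without HP1α WT replicates 1 and 2 and 4 without HP1γ WT replicate 2.

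Genes of the HP1 pathway were read at their starts for comparison. The list held Cbx1, Cbx3 and Cbx5, which encode the HP1 proteins, the methyltransferase genes Suv39h1, Suv39h2, Setdb1, Ehmt1 and Ehmt2, and Trim28, Atrx, Mphosph8, Morc2a and Tasor, whose products act in silencing. Of these 13 genes 12 had a peak at a start, 13 peaks in all, and 0 peaks were called by edgeR in any of the 6 comparisons of KO and WT, with 0, 0 and 4 at an unadjusted p under 0.05 in HP1α and 0, 2 and 4 in HP1γ (naive, Tconv and with Treg). DESeq2 called 1, in HP1α with Treg. The log2 fold changes lay between -0.19 and 0.49 in HP1γ and between -0.14 and 1.13 in HP1α, the highest value in the condition with 1 KO library.

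The peaks most like each lead peak were sought by the correlation of log2 CPM over the 33 kept libraries, centred within line and condition. The Gm19786 peak was most like the start of 5730507C01Rik (Pearson r = 0.932), followed by the starts of Cfap53 and Myo5b (both 0.917). Gm49700 was most like ENSMUSG00000141379 (0.865), Gm49327 just outside the stretch (0.861) and BC024063 on chromosome 10 (0.856). 1700030C10Rik was most like Gm49700 (0.818), a peak 21366 bp from the start of Gm54974 on chromosome 7 (0.795) and BC024063 (0.758). Peaks with r above 0.8 numbered 166 for Gm19786, 9 for Gm49700 and 1 for 1700030C10Rik. The centring left the difference between KO and WT in, so r also follows the values that chose the loci. The points share their libraries and depth, and copied peaks may share reads, so these values describe the libraries and carry no test.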

How the data were processed

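The study measured chromatin accessibility with ATAC-seq. Per its methods, the authors trimmed reads (Trim Galore 0.6.7), aligned them to GRCm39 with BWA-MEM2, kept well-placed reads, removed duplicates, called peaks per sample with HMMRATAC, merged them and deposited raw counts per peak from featureCounts 2.0.3, with no normalization. Of 71512 intervals 3 had no width and were left out. Positions count from 1 and genes are those of GENCODE vM39. The members and lists were chosen with earlier results of these data known.

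The counts were fitted per line (15 kept HP1α libraries, or all 18, and 18 of HP1γ) and jointly (33), after TMM scaling and filterByExpr, which kept 71509, 71508 and 71509 peaks and all 81 members (71508 peaks and 80 members with all 18), with edgeR 4.0.16 under R 4.3.3 (quasi-likelihood, two-sided, Benjamini-Hochberg over all peaks of a comparison). A standard error is the absolute log2 fold change divided by the root of its F. Variation between replicates came to a common biological coefficient of 26.6% in HP1α, 22.2% in HP1γ and 24% jointly. Copies were sought with blastn 2.17.0. RefSeq promoters, on GRCm38, served only for motif shares. No label ties a library to an animal or pool, so p-values measure the spread between these libraries, which may be technical.

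Members named with values were all peaks overlapping or nearest to the 3 loci, those called in at least 2 of the 6 comparisons of KO and WT, of those called in 1 the 2 of lowest adjusted p upward and downward, and for each change of condition the 2 called ones of lowest adjusted p upward and downward. The script was tested on simulated data. Whether shared replicate numbers pair libraries was judged from how alike their deviations from the group mean were. Every correlation passed 0.1 in 3 comparisons, the HP1α knockout in naive cells (0.25 to 0.50), the HP1γ knockout with Treg (0.15 to 0.32) and Treg against none in HP1γ WT (0.20 to 0.29), a hint from the data since the labels leave the numbers unexplained. The alternatives were library size alone, DESeq2 1.42.0, no filter, all HP1α libraries, the replicate block, log2 depth as a covariate, fitting only the groups compared and leaving out each library. Figures were drawn with matplotlib 3.10.9.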

Additional observations from a re-analysis of the deposited data

Results flagged for a closer look

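The effects of HP1α loss and HP1γ loss differed by the joint test at 13 entries, over 12 members, given as HP1α minus HP1γ on the log2 scale ± SE. Since HP1α in naive cells and Tconv and HP1γ in transferred cells were part of the choice of the stretch, these differences are a description. The 9 with Treg are 11.1% of members, the same as the 11.1% of all peaks, and their count was 0 without HP1α WT Treg replicate 1. For naive cells and Tconv the shares were 1.23% of members against 0.0308% and 3.7% against 1.04%. In naive cells the start of 1700030C10Rik differed by 2.22 ± 0.40. In Tconv the start of 5730507C01Rik differed by -4.13 ± 0.87, the Gm19786 lead peak by -4.70 ± 0.82 and a peak near the pseudogene Gm6969 by 1.19 ± 0.27.

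With Treg, where HP1α rests on 1 KO library, the difference was below 0 at the copied members Gm9249 (-7.34 ± 1.89) and 5730507C01Rik (-4.84 ± 1.52) and at the single-copy peaks in introns of Asap2 (-2.24 ± 0.65) and Grhl1 (-2.85 ± 0.72) and at Gm59951 (-1.94 ± 0.43). At all 5 the log2 fold change of KO against WT was below 0 in HP1α and above 0 in HP1γ, such as -1.56 and 0.46 at Gm59951. The difference was above 0 at Gm49586 (3.59 ± 1.04), in an intron of Ywhaq (2.82 ± 0.92) and at both Gm60592 peaks (2.286 ± 0.56 and 2.88 ± 0.85). At Gm9249 the kept HP1α WT replicate 2 held 16 reads, 8.55 CPM, and no other library of that group came above 1.73 CPM. No test for a single outlying library was applied, since each group held at most 3.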

How the results depend on the processing

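Counts of members called are given, followed by those of all peaks called in the same order. Fitting only the groups compared gave 1, 0 and 0 for HP1α KO against WT (naive, Tconv, with Treg), 7 for HP1γ in naive cells and 18 with Treg (all peaks 2, 1, 0, 1074 and 3656). DESeq2 gave 12 for HP1γ naive, 7 and 0 for Treg in HP1α WT and KO, 2 and 8 for Treg in HP1γ WT and KO, and 5 and 16 for the difference between knockouts in Tconv and with Treg (2339, 6798, 104, 2329, 4678, 795 and 11410). All HP1α libraries gave 4 for HP1α Tconv, 0 for HP1α with Treg and 2 for Treg in HP1α WT (24, 530 and 5567). Library size alone gave 1 and log2 depth 3 for HP1γ naive, and log2 depth 0 for HP1α with Treg (88, 92 and 41). No filter moved 0 of 17 counts. The replicate block gave 5 for HP1α Tconv, 2 for HP1γ naive and 13 for the difference in Tconv (110, 280 and 3983), in comparisons where the numbers do not pair the libraries. In the 3 comparisons that are paired the block gave 3, 31 and 0 (35, 11041 and 435) and moved no count beyond 1.5 times. No such fit could be made for HP1α KO against WT with Treg, Treg in HP1α KO or the difference with Treg, where fewer than 2 numbers were shared.

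Leaving out 1 library gave 1 to 2 for HP1α naive, 1 to 4 for HP1α Tconv, 0 to 1 for HP1α with Treg, 11 to 18 for HP1γ Tconv and 18 to 33 for HP1γ with Treg. It gave 0 to 5 for Treg in HP1α WT, 0 to 1 in HP1γ WT and 4 to 19 in HP1γ KO, and 0 to 1, 2 to 5 and 0 to 12 for the difference in naive cells, Tconv and with Treg. Where it left 1 library in a group, that library was taken to vary like the others. Leaving out the 1 KO library with Treg was not run. Of the single members followed, 0 called values changed sign. The cause of these shifts was not tested. Few reads limit the precision at many copied members, and how many reads copies share was not measured.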
